A study of Mus musculus with 2 samples.

Results

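The STAT genes encode the transcription factors at the end of the JAK-STAT pathway. The 6 genes described here, Stat2, Stat3, Stat4, Stat5a, Stat5b and Stat6, were chosen by family name among 21938 protein-coding genes of the mouse annotation. The readout was H3K27ac, an acetylation of histone H3 found at active promoters and enhancers, measured by chromatin immunoprecipitation and sequencing. The cells were macrophages grown from bone marrow of C57BL/6J mice and left without stimulation. They formed 1 group of 2 biological replicates, each started from 10 ng of DNA, with no mutant, transgene or treatment in the labels. The labels give both replicates the same donor entry, and record sex, age and stage as unknown or not collected. With 1 group there was no contrast between conditions, so the genes were compared with each other, with the rest of their pathway and with all protein-coding genes, in both replicates and without a test.

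In this pathway a cytokine binds a receptor at the cell surface, Janus kinases bound to the receptor phosphorylate it, and a STAT protein docks there and is phosphorylated in turn. Phosphorylated STAT proteins pair through their SH2 domains, enter the nucleus and bind DNA at gamma-activated sites, palindromes of TTC and GAA. STAT2 is the exception, since it acts mainly in a complex with IRF9 that reads the interferon-stimulated response element. In macrophages, type I interferon acts through STAT2, interleukin-10 and interleukin-6 through STAT3, interleukin-4 and interleukin-13 through STAT6, and growth factors such as GM-CSF through STAT5. STAT4 is best known from T cells and natural killer cells responding to interleukin-12. H3K27ac at a STAT gene reports on the activity of the chromatin of that gene, not on phosphorylation of the protein.

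Replicate 1 held 29543 peaks and replicate 2 held 29345. For each peak the authors deposited a fold, a linear enrichment ratio, and folds were used to rank peaks within their own list. The percentile of a peak is the percentage of peaks in its list with a lower fold. Paired values are given in the order replicate 1, replicate 2. A promoter was the 1 kb on either side of an annotated start, a gene counted as marked when both replicates had a peak in any of its promoters, and a distal region lay over 1 kb from every protein-coding start. Each gene was examined over its body and 25 kb either side. Since no source used here gives the read depth, a start with no called peak may still carry H3K27ac below the authors' threshold. All 8 macrophage markers were marked, among them Spi1, Csf1r and Adgre1. None of the 3 markers each of T cells, B cells, neutrophils, fibroblasts and epithelium had a promoter peak in either replicate.

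Of the 6 STAT genes, 5 were marked, against 39.4% of all protein-coding genes, and Stat4 was the exception. Taken singly, replicate 1 had a promoter peak at 5 of the 6 (40.5% of all genes) and replicate 2 at all 6 (41.6%). Their promoter peaks had a median percentile of 80.4 (80.1 and 78.5 within the replicates), beside 69.2 over all 8633 marked genes, and 4 of the 5 lay above that median. The median width of their highest promoter peaks was 936 bp in replicate 1 and 1425 bp in replicate 2, below and above the 1012 and 1116 bp of all marked genes. The median of the mean widths was 1058.5 bp, that of Stat2, beside 1070.5 bp over all marked genes. Stat6 stood highest and widest, Stat2, Stat3 and Stat5b formed a middle group, and Stat5a was the lowest of the marked STAT genes.

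**Figure D1:**
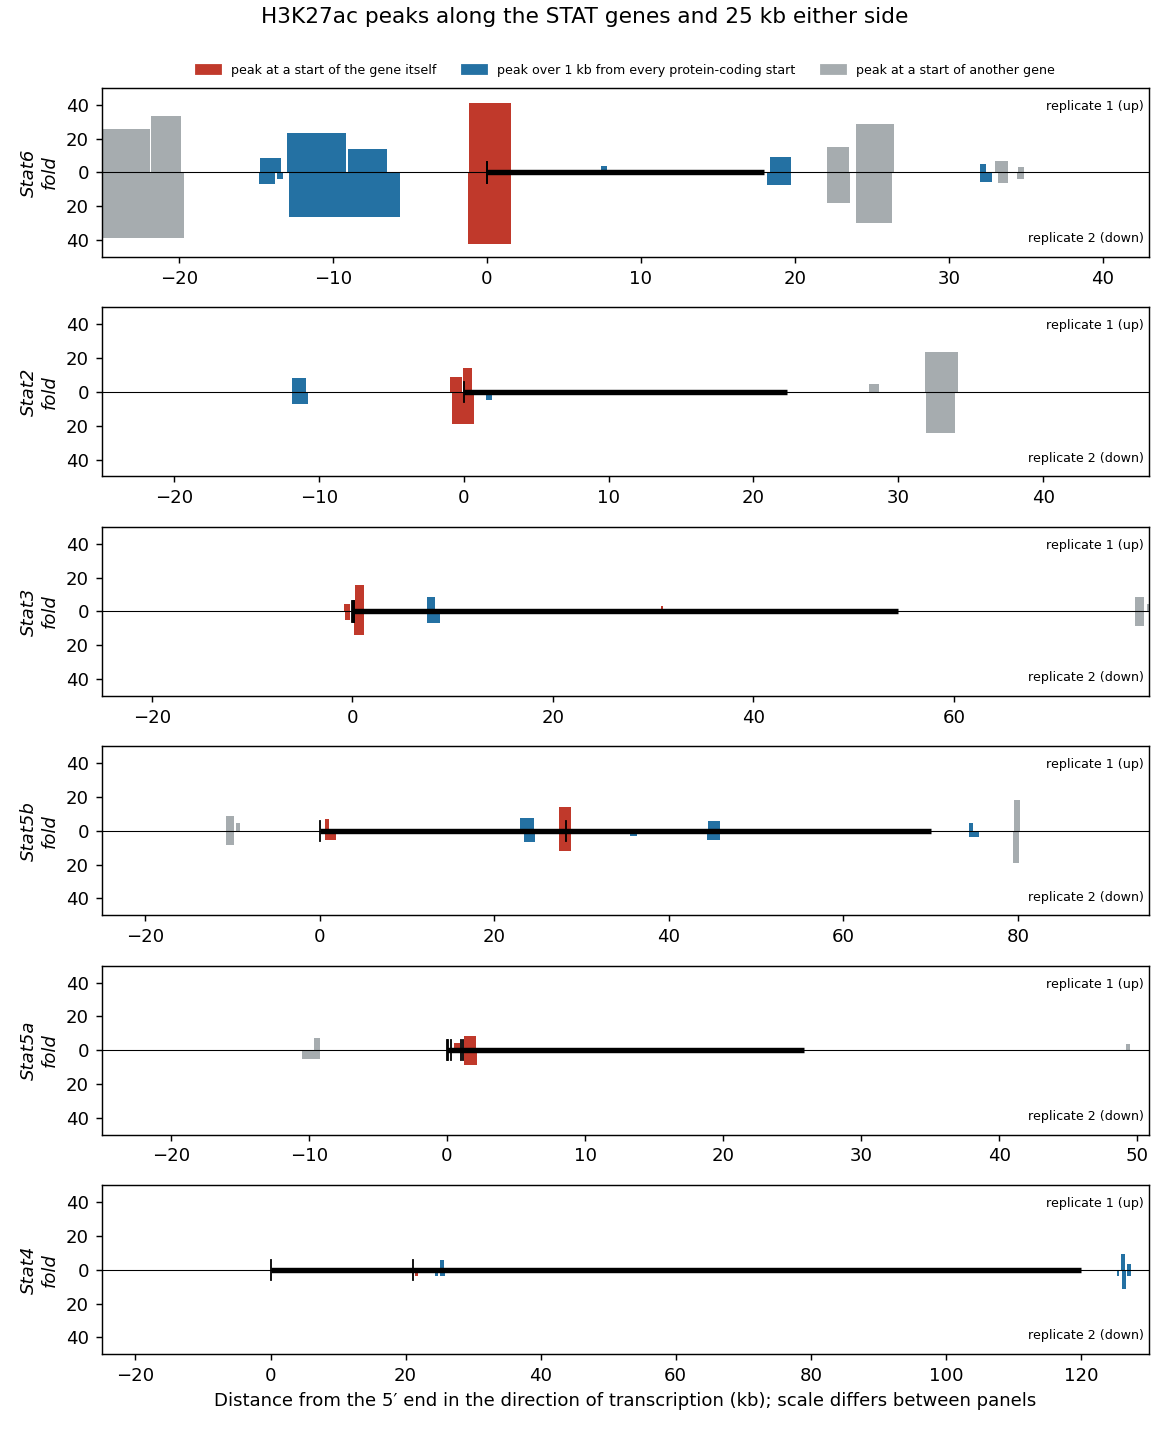
H3K27ac peaks along the 6 STAT genes and the 25 kb on either side, except that the Stat4 panel ends 10 kb past the gene. The horizontal axis is the distance from the 5′ end in kb in the direction of transcription, bars give the width and fold of each peak, upward for replicate 1 and downward for replicate 2, the thick line is the gene body and short vertical lines are protein-coding starts; Stat6 carries a promoter peak of 41.1 and 42.6 and a broad upstream block, and Stat4 has no promoter peak in replicate 1.

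Stretches of the reference sequence frame the results that follow: the promoters of Stat6 and Stat2, the internal promoters of Stat5b and Stat4, and a site in the upstream region of Stat6. They come from RefSeq on GRCm38.p6, run 5′ to 3′ on the strand of the gene, and the promoters span 250 bases before to 10 bases after the RefSeq start. In Stat2 the capitals mark TTTCAGTTTC, a match on the other strand to the core of the interferon-stimulated response element (GAAA, 2 bases, GAAA), and TTCCCTAGAA, a match to the gamma-activated word with a spacer of 4 (TTC, 4 bases, GAA). In Stat4 they mark a match to the response element core, in Stat5b the block that aligns with Stat5a, and in the Stat6 upstream site a match to the gamma-activated word with a spacer of 4; the Stat6 promoter held none of the words searched.
Stat6 promoter, chr10:127642736-127642995, plus strand: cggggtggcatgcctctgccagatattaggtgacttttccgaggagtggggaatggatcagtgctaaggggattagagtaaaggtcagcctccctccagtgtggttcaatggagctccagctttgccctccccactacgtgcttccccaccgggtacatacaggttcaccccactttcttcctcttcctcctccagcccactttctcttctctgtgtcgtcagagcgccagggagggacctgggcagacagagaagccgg
Stat2 promoter, chr10:128270248-128270507, plus strand: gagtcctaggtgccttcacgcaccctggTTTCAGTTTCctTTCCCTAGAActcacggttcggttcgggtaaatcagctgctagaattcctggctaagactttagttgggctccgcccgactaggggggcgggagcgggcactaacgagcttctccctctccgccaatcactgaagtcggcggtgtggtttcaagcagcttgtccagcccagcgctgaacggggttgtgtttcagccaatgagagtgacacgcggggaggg
Stat5b internal promoter, chr11:100822561-100822820, minus strand: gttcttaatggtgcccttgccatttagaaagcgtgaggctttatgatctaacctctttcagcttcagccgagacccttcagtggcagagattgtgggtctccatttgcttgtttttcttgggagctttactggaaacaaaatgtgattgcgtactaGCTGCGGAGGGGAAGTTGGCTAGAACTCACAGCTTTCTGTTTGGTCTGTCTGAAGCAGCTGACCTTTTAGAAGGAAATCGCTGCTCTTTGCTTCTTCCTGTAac
Stat4 internal promoter, chr1:52007990-52008249, plus strand: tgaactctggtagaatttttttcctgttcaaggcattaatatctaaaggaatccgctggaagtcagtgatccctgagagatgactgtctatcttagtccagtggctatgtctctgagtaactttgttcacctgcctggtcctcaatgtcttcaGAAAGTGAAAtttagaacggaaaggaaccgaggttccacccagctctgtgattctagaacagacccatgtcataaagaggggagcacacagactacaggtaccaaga
Stat6 upstream site, chr10:127631819-127631868, plus strand: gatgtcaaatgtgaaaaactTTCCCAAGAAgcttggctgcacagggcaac

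Stat6, the factor of interleukin-4 and interleukin-13 signalling, lies on the plus strand at chr10:127642986-127660957. Its promoter peak reached 41.1 in the first replicate and 42.6 in the second, ranked 164 of 29543 and 131 of 29345, at percentiles of 99.4 and 99.5. The peak covered the 5′ end in both replicates and was 2714 and 2786 bp wide, with its summit 261 and 293 bp upstream of the 5′ end. Stat6 was the only STAT gene in the upper 10% of peaks by fold in both replicates, a place that 6.4% of all protein-coding genes and 16.3% of marked genes held. Of all marked genes, 99.1% had a lower percentile.

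Upstream of Stat6 lay its strongest distal region, chr10:127630001-127637321, centred 9.33 kb before the 5′ end and outside any protein-coding gene. Its fold was 23.3 and 26.3, at percentiles of 92.7 and 94.7, above the promoter peaks of the other 5 STAT genes in the same replicate. The region was 7321 bp wide, called as 2 adjacent peaks in replicate 1 and as 1 peak in replicate 2, and holds the start of the pseudogene Gm48815. Of 13533 distal regions of the genome, 106 (0.783%) were at least as wide, and the median was 1386 bp. The whole region held 5 gamma-activated words, 0.683 per kb, close to the 0.630 per kb of all distal regions. The site printed above was the one nearest to the summit, 73 bp away in replicate 1 and 9 bp in replicate 2. The other words lay 1388 to 4962 bp from the summit in replicate 1 and 1452 to 5026 bp in replicate 2.

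Around Stat6, 3 more distal regions were found in both replicates. The region at chr10:127628228-127629760 had a fold of 8.78 and 6.54. The one at chr10:127661150-127662740, past the 3′ end and inside the neighbour Nab2, had 9.29 and 7.54, and chr10:127674980-127675814, inside Nemp1, had 4.74 and 5.36. A further peak in intron 4 was called in replicate 1 alone, at 3.96. Peaks covered 33.8% and 35.3% of the Stat6 window, beside a mean of 3.70% and 3.89% over the windows of all protein-coding genes. Part of that cover belonged to starts of the neighbours Lrp1, Nab2 and Nemp1, so the share describes the neighbourhood and not Stat6 alone.

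Stat2, the interferon factor that works with IRF9, lies at chr10:128270559-128292849 on the plus strand, 628 kb from Stat6. In replicate 1 its promoter held 2 peaks, of 8.95 with the summit 420 bp upstream and of 14.1 with the summit 187 bp past the 5′ end. In replicate 2 a single peak of 18.9 spanned both sides, with its summit 210 bp downstream. The highest peak thus stood at percentiles of 79.8 and 87.5 and measured 652 and 1465 bp, so that its width differed between the replicates by how the signal was divided into peaks. The upstream peak of replicate 1 also reached the promoter window of the neighbouring apolipoprotein gene Apof, from which it cannot be told apart.

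The Stat2 promoter carried the matches in capitals 222 and 210 bases before the RefSeq start, side by side. In replicate 1 both matches lay inside the upstream peak of 8.95, shared with Apof, and outside the peak of 14.1. In replicate 2 they lay inside the single promoter peak. Among 32851 RefSeq promoters of the same length, 3.44% held the response element core and 6.95% the gamma-activated word with a spacer of 4. One distal region was found in both replicates, chr10:128258681-128259807, 11.3 kb upstream, at 8.26 and 7.36. A peak of 4.52 in intron 1 was called in replicate 2 alone.

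Stat3, which carries interleukin-6 and interleukin-10 signals, lies at chr11:100885098-100939540 on the minus strand. Its 5′ end sat in a gap between a pair of peaks in both replicates. The stronger peak lay downstream, in intron 1, at 15.3 and 13.9, with percentiles of 82.3 and 78.5, widths of 936 and 993 bp and summits 581 and 582 bp inside the gene. The weaker peak lay upstream, at 4.30 and 5.03, with summits 464 and 364 bp before the 5′ end. A 5′ end outside every peak in both replicates was found in 47% of the 7922 genes marked at their 5′ end. That share does not require a peak on each side, so the frequency of a gap between a pair of peaks was not counted.

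One distal region of Stat3 was found in both replicates, chr11:100930762-100932063 in intron 1, 8.13 kb into the gene, with a fold of 8.60 and 6.87. It held 1 gamma-activated word, 0.768 per kb beside 0.630 per kb over all distal regions. The word, in capitals on the plus strand, was the only one in the sequence searched for Stat3, its RefSeq promoter and this region. The word lay inside the peak of replicate 2 alone, 667 bp from its summit and outside the narrower peak of replicate 1.
Stat3 intron 1 site, chr11:100930915-100930963, plus strand: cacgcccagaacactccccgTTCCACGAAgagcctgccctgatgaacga

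**Figure D2:**
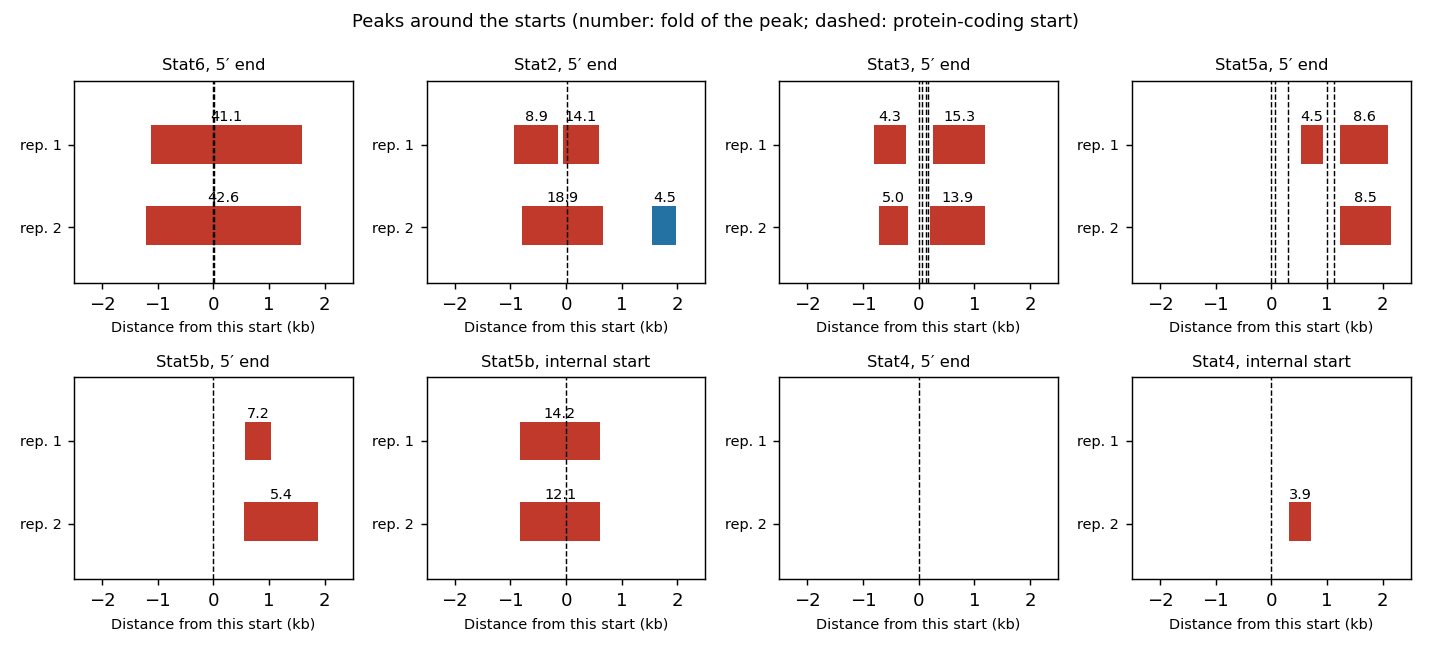
Peaks within 2.5 kb of the starts of the 6 STAT genes, with distance from the start in kb on the horizontal axis, 1 row per replicate, the fold printed over each peak and protein-coding starts dashed. Peaks covered the start of Stat6 and the internal start of Stat5b, flanked the 5′ end of Stat3, and were called in replicate 2 alone at the internal start of Stat4.

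Stat5b and Stat5a encode closely related factors of growth hormone, prolactin and haematopoietic cytokine signals, and lie head to head, with 5′ ends 8.63 kb apart. Stat5b, at chr11:100780731-100850724 on the minus strand, had its highest promoter peak at an internal start and not at its 5′ end. Near the 5′ end the peak had a fold of 7.23 and 5.36, at percentiles of 51.5 and 33.9, and its nearer edge lay 574 and 549 bp inside the gene. At the internal protein-coding start 28.2 kb downstream, in intron 1, the peak had a fold of 14.2 and 12.1, at percentiles of 80.1 and 73.9, and covered the start with a width of 1429 and 1425 bp. The higher peak stood at the internal start in both replicates, an arrangement found in 386 (4.87%) of the 7922 genes marked at their 5′ end. By its 5′ end alone Stat5b would stand at a mean percentile of 42.7 and not 77.0.

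The Stat5b promoters also differed in base composition. The RefSeq promoter at the 5′ end had a GC content of 82.7% and 50 CpG dinucleotides, with an observed to expected CpG ratio of 1.01. The internal promoter had 47.3%, 7 CpG dinucleotides and a ratio of 0.421, near the median promoter at 52.7%, 7 and 0.384. The promoter of higher acetylation was thus the one of lower CpG content. Stat5b had 3 distal regions in both replicates. They lay at chr11:100826081-100827735 in intron 1 (7.74 and 6.87), chr11:100804821-100806309 in intron 2 (6.09 and 5.53) and chr11:100775159-100776372 past the 3′ end (4.82 and 3.69). A peak of 2.78 in intron 1 was called in replicate 2 alone.

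Stat5a, at chr11:100859351-100885169 on the plus strand, was the lowest of the marked STAT genes and had no distal region in either replicate. Its highest promoter peak had a fold of 8.60 and 8.55, at percentiles of 60.4 and 58.8, with a width of 867 and 911 bp. The summits lay 382 and 400 bp past the nearest annotated start, a noncoding one 1134 bp inside the 5′ end, 1 base after the protein-coding start at position 100860484. A second peak nearer the 5′ end was called in replicate 1 alone, at 4.47, so by its 5′ end alone Stat5a would not count as marked. Having no distal region was common: 34.2% of protein-coding genes had at least 1 in both replicates.

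The internal Stat5b promoter and a Stat5a promoter resembled each other in sequence. Of the 36 pairs among the 9 RefSeq promoters of the 6 genes, the internal Stat5b promoter and the Stat5a promoter at position 100860484 gave the highest local alignment score, 98, and the next pair reached 29. The alignment ran over 102 columns with 82 identical bases (80.4%), from 94 bases before to 8 after the Stat5b start and from 100 to 2 bases before the Stat5a start. The other 3 pairings of a Stat5b with a Stat5a promoter scored 20 to 27. All 4 promoters had a peak within 1 kb in both replicates, but the highest was the same peak for both Stat5a promoters (8.60 and 8.55). The best 30 columns without a gap held 28 identical bases, which are in capitals in both stretches.
Stat5b, chr11:100822581-100822610, minus strand: GCAGCTGACCTTTtAGaAGGAAATCGCTGC
Stat5a, chr11:100860435-100860464, plus strand: GCAGCTGACCTTTgAGgAGGAAATCGCTGC

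Stat4, the interleukin-12 factor, lies at chr1:51987148-52107189 on the plus strand and was the STAT gene without a promoter peak in replicate 1. In replicate 2 a single peak of 3.85, 400 bp wide and at a percentile of 11.6, lay near internal starts 21.6 kb inside the gene. The pooled pseudoreplicated list of the authors held it at 3.15 and their replicated list did not hold it. The 5′ end had no peak in any of the 4 lists, and the Stat4 promoter printed above belongs to the internal start. Its match, GAAAGTGAAA, begins 97 bases before that start. The match and the printed promoter, which ends at position 52008249, lay outside the replicate 2 peak, which began at position 52008559. A promoter peak in replicate 2 and none in replicate 1 was found for 2.27% of protein-coding genes.

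Despite its unmarked 5′ end, Stat4 had 3 distal regions in both replicates. The region in intron 3, chr1:52012198-52013042, had a fold of 5.51 and 4.02. The other two lay past the 3′ end near starts of the long noncoding RNA gene Gm31812, with chr1:52113118-52113755 at 9.46 and 11.2 and chr1:52114004-52114623 at 3.60 and 3.52. These lie closer to a noncoding start and to the start of another protein-coding gene than to the 5′ end of Stat4, and the files do not link a region to the gene it acts on. Further peaks of 3.76 in intron 2 and 3.69 past the 3′ end were called in replicate 2 alone.

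**Figure D3:**
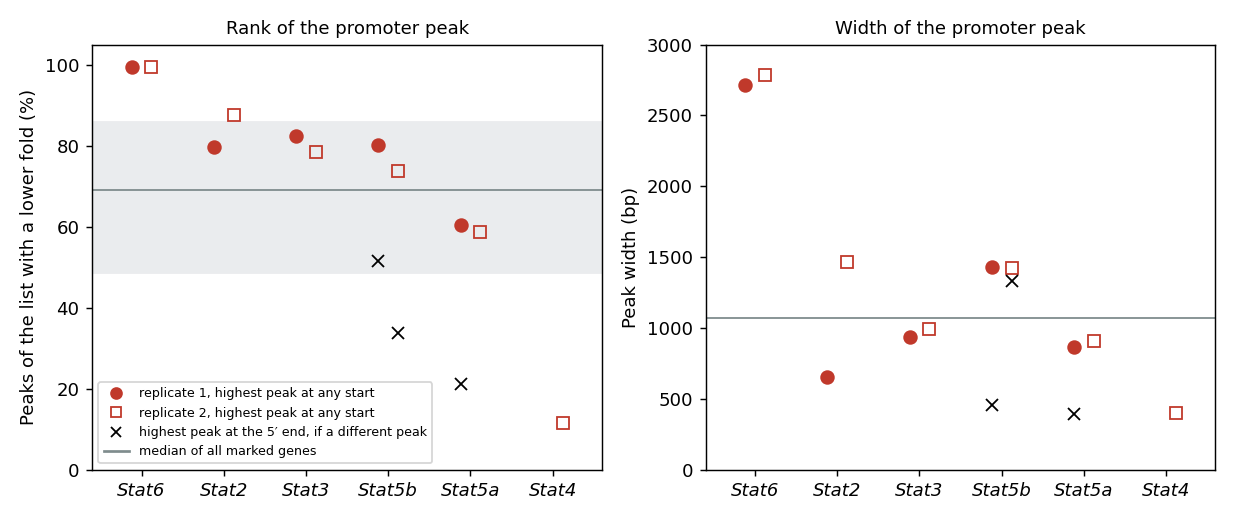
Percentile by fold (left, grey band from 48.5 to 85.9 for the middle of all marked genes) and width in bp (right) of the highest promoter peak of each STAT gene in replicate 1 (filled circle) and replicate 2 (open square). Crosses give the peak at the 5′ end where it is a different peak, as for Stat5b; Stat6 lies above the band in both replicates, and Stat4 has a single point at 11.6.

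Stat6 led the order of the genes by promoter percentile in both replicates, and the rest of the order differed between them. In replicate 1 it ran Stat6, Stat3, Stat5b, Stat2 and Stat5a, and in replicate 2 Stat6, Stat2, Stat3, Stat5b, Stat5a and Stat4. Mean percentiles were 99.5 ± 0.0768 (SD, n = 2) for Stat6, 83.6 ± 5.46 for Stat2, 80.4 ± 2.73 for Stat3, 77.0 ± 4.43 for Stat5b and 59.6 ± 1.09 for Stat5a. The replicate values of Stat2, Stat3 and Stat5b overlapped: Stat2 lay below the other two in replicate 1 and above them in replicate 2, while Stat3 lay above Stat5b in both.

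In all, 12 distal regions near the 6 genes were found in both replicates and 5 in 1 replicate alone, and 4 of the 12 lay in introns of the STAT genes. Stat6 had 4, Stat4 and Stat5b had 3 each, Stat2 and Stat3 had 1 each and Stat5a had none. At least 3 such regions were found for 9.6% of protein-coding genes. The count does not follow the promoter rank, since Stat4 had as many as Stat5b. Windows differ in length, and per 100 kb the values were 5.88 for Stat6, 2.5 for Stat5b, 1.76 for Stat4, 1.38 for Stat2 and 0.957 for Stat3, beside a mean of 1.45 over marked genes.

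**Figure D4:**
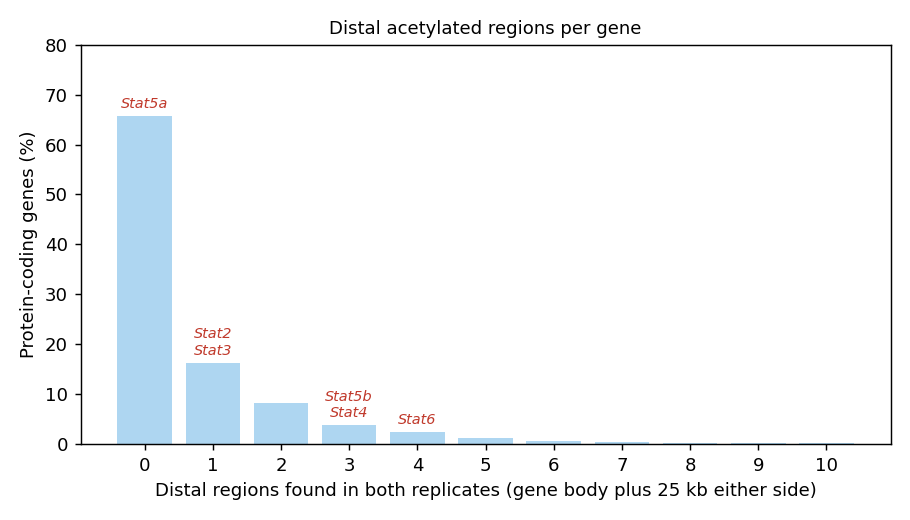
Share of 21938 protein-coding genes (vertical axis, %) by the number of distal regions found in both replicates (horizontal axis, shown up to 10), with the STAT genes named over their bars. Stat5a stands at 0, Stat2 and Stat3 at 1, Stat4 and Stat5b at 3 and Stat6 at 4.

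The words were read on both strands of the 9 RefSeq promoters and of the 12 distal regions, and the gamma-activated words with a spacer of 3 (TTCNNNGAA) and of 4 cannot both match from the same base, while other matches may overlap. None of the promoters held TTCNNNGAA, which 8.30% of all RefSeq promoters held, 1 held the word with a spacer of 4 and 2 held the response element core. None held GAGGAAGT, a PU.1 and ETS word found in 3.20% of promoters, or the AP-1 word TGACTCA, found in 5.20%. In the 300 bases around the middle of the 12 distal regions, GAGGAAGT occurred in 1 (Stat5b intron 2) and TGACTCA in 1 (inside Nemp1 near Stat6), beside 6.93% and 11.5% of all 13533 distal regions. The other 3 words occurred in none of the 12 and in 9.81%, 8.36% and 5.93% of all distal regions, for the gamma-activated words with a spacer of 3 and of 4 and the response element core. With 12 regions, these counts do not separate the STAT genes from the background. Over the whole length of the 12 regions, TGACTCA was found in 5 (0.248 sites per kb, beside 0.300 over all distal regions) and GAGGAAGT in 3 (0.149 beside 0.155). The word with a spacer of 3 was found in 3 regions (0.248 beside 0.338), the word with a spacer of 4 in 1, at Stat6 (0.0992 beside 0.292), and the response element core in 1, at Stat3 (0.0992 beside 0.180).

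The genes that act before and after the STAT proteins were described from a list of 77 pathway genes, chosen with earlier results of these data known. Of the list, 52 (67.5%) were marked, beside 39.4% of all protein-coding genes. All 4 Janus kinases, which phosphorylate the STAT proteins, were marked, with folds of 13.2 and 14.4 at Jak3, 9.12 and 10.4 at Tyk2, 7.74 and 8.71 at Jak2 and 6.89 and 6.02 at Jak1. Their median percentile of 61.3 was below that of the STAT genes. Of 40 receptor chains 22 (55%) were marked, led by Il21r, the interleukin-21 receptor (35.3 and 33.9), and Il10rb, a chain shared by interleukin-10 family receptors (31.1 and 28.5). The erythropoietin receptor Epor and the growth hormone receptor Ghr had no promoter peak in either replicate.

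Of 18 inhibitors 14 were marked, led by the phosphatases Ptpn1 (32.2 and 32.9) and Ptpn6 (31.5 and 27.5). The feedback inhibitors Cish and Socs2 had no promoter peak in either replicate, though Cish had 2 distal regions found in both. Of 5 partners 3 were marked, with the STAT2 partner Irf9 at 25.6 and 30.0 and the acetyltransferase Ep300 at 21.5 and 24.0, while the related acetyltransferase Crebbp had none. Irf9 thus stood above Stat2 in both replicates. Of 10 target genes 9 were marked, led by Bcl3, a nuclear IκB protein (43.7 and 45.6), and the kinase gene Pim1 (29.6 and 29.1).

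**Figure D5:**
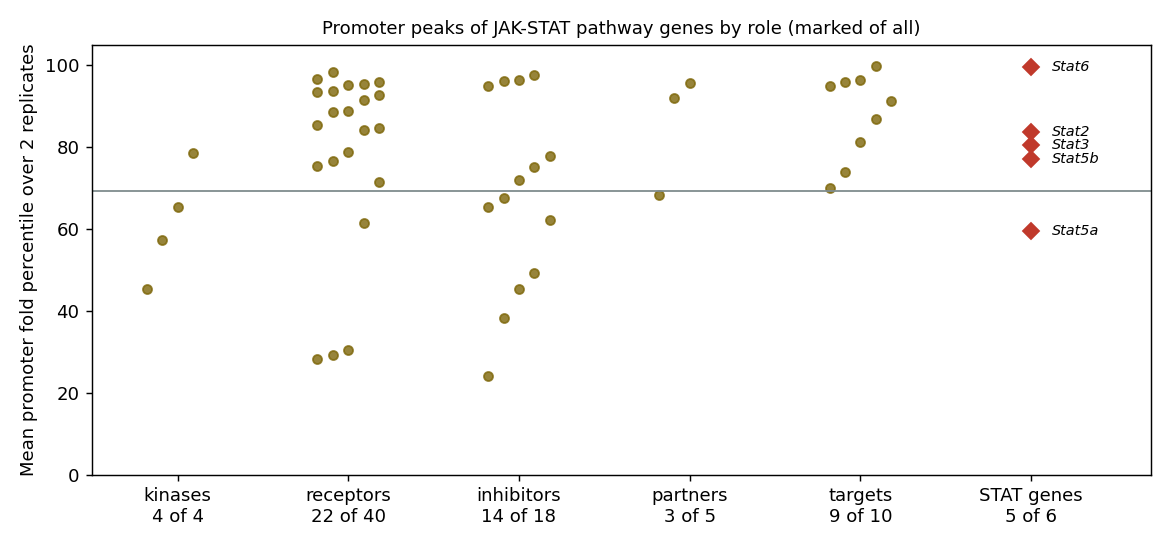
Mean promoter fold percentile over 2 replicates (vertical axis) of the marked genes of each pathway role, 1 point per gene, with the 5 marked STAT genes as diamonds and the number marked of all under each role. The line is the median of all marked genes at 69.2; 3 of the 4 kinases lie below it, and 4 of the 5 marked STAT genes lie above it.

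Each marked STAT gene was set beside the pathway gene nearest to it in percentile, taken as the smallest value of the larger difference over the 2 replicates. Stat6 stood nearest to Bcl3, within 0.222 percentile points. Stat3 stood nearest to Bcl6, a transcriptional repressor gene, within 1.55 points (16.2 and 13.9). Stat2 stood nearest to Csf2rb2, a beta chain of the interleukin-3 receptor, within 3.25 points (15.6 and 18.0). Stat5b stood nearest to Pias3, an inhibitor named for its action on STAT3, within 3.47 points (12.9 and 12.1). Stat5a stood nearest to Lifr, the receptor of leukaemia inhibitory factor, within 3.52 points (8.55 and 9.16).

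The replicates matched near the STAT genes about as often as elsewhere. Of 35 peaks of replicate 1 in the windows of the 6 genes, 31 (88.6%) overlapped a peak of replicate 2, beside 91.3% of all its peaks. Of 34 peaks of replicate 2, 29 (85.3%) overlapped a peak of replicate 1, beside 88.6%. The 4 peaks of replicate 1 without a partner had folds from 3.44 to 4.82 and the 5 of replicate 2 from 2.78 to 4.52, below the highest promoter peak of each marked STAT gene. The replicate 1 peak at 4.82 lay at the start of Il23a near Stat2, and that at 3.44 near a noncoding start inside Stat3.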

How the data were processed

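H3K27ac was measured in 2 replicates of 1 group, and 4 peak lists on mm10 were used. Per the deposited text files, 1 pseudoreplicated list was made from each replicate's own alignments, and a replicated and a pooled pseudoreplicated list from both replicates together, whose values are the authors' own, without SD or n. In narrowPeak order, the authors gave each peak a linear fold (a ratio) and a deposited q-value on a −log10 scale; the peak positions and summits are the authors' too. The aligner, the peak caller, the control behind the fold and the read depth are not given in the sources used here, and no step that scales folds between lists was recorded. No columns mapped to other samples. The shared donor entry means that the spread between replicates may be technical and may leave out differences between animals.

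Positions are 1-based on GRCm38 patch 6 with gene models of GENCODE M21, without the mitochondrial genes. Peaks were compared with an overlap of at least 1 bp in python 3.11.15 with numpy 2.4.6, and pysam 0.24.0 read the genome. Distal regions are peaks of either replicate outside 1 kb of all protein-coding starts, merged where they overlap. A GENCODE symbol matched each of the 6 genes, and RefSeq promoters (250 bases before to 50 after the start, GRCm38.p6) were found for all 6. Promoters were aligned locally with biopython 1.88 (match 2, mismatch -3, gap opening -5, gap extension -2). The overlap and ranking steps were tested on simulated data.

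The genes, the pathway list, the markers and the words were chosen with earlier results of these data known. The rule for names took all 6 STAT genes, the nearest pathway gene of each marked one, all kinases, the 2 highest marked genes of each role and the first 2 in alphabetical order with no promoter peak, and genes that share a start or promoter peak with a STAT gene. Lrp1, Nab2, Nemp1, Il23a, Gm48815, Gm31812 and the markers were named outside it, to say what lies at a peak or which cells these are. The alternatives were promoter windows of 2.5 kb and 500 bp, the 5′ end alone, the 20000 peaks of highest fold, a minimum of 5 for the −log10 q, an overlap of 50%, ranking by −log10 q, flanks of 10 and 100 kb, each list made from both libraries, and each replicate alone. Starts of protein-coding transcripts alone were added after seeing the data.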

Additional observations from a re-analysis of the deposited data

How the results depend on the processing

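Of 49 alternative values for the 5 group results, 41 moved by less than the spread between replicates or, for counts, by at most 1.5 times. The 12 distal regions became 8 among the 20000 peaks of highest fold, 27 with a flank of 100 kb and 19 with the replicated or the pooled pseudoreplicated list of both libraries. The median percentile of 80.4 became 82.0 with the 5′ end alone, 83.8 with the replicated list and 81.8 with the pooled pseudoreplicated list, and leaving out a replicate gave 76.2 to 80.1, the lower value without replicate 1, where Stat4 enters the median. The median width of 1058.5 bp became 1543 bp with the replicated list and ranged from 936 to 1209 bp when a replicate was left out. The number of STAT genes with a promoter peak ranged from 4, with the 5′ end alone, to 6, with the pooled pseudoreplicated list or without replicate 1. With the 5′ end alone, Stat5a was no longer marked. Stat6 had the highest percentile in every alternative run, while the lowest was Stat5b with the 5′ end alone, Stat4 with the pooled pseudoreplicated list or without replicate 1, and Stat5a in the others. For single genes, 33 of 39 alternative percentiles and 47 of 66 alternative counts of distal regions stayed within those limits. Stat5b fell from 77.0 to 42.7 with the 5′ end alone, because its higher peak is at the internal start. Without replicate 1, Stat2 had 2 distal regions and Stat4 had 5. Stat6 had 6 with either list of both libraries or without replicate 2, and Stat5b had 2 with an overlap of 50% or among the 20000 peaks of highest fold. Stat6 had 2 with a promoter window of 2.5 kb and 2 with a flank of 10 kb, and Stat4 had 1 among the 20000 peaks of highest fold. No paired analysis was possible because there is 1 group. The unknown read depth limits what a missing peak shows, most of all for Stat4, and 2 replicates limit the order of Stat2, Stat3 and Stat5b.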
